A study of Mus musculus with 8 samples.

Results

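The genes described here are ligands, receptors, Smads, direct targets and modulators of Bmp, Tgf-beta and activin signalling. They are 40 genes of the 23433 counted, measured by RNA-seq in epithelial cells of newborn mouse skin. They were chosen by name for their place in the pathway: 11 ligands, 10 receptors, 7 Smads, the 4 Id target genes and 8 antagonists and modulators. All 40 were in the files, and 38 passed the filter on low counts and were tested. Bmp5, a ligand, had 2 and 4 counts in transgenic hair germ and 0 in the other 6 libraries. Grem1, a secreted Bmp antagonist, had 4 and 4 counts in transgenic interfollicular epidermis and 0 elsewhere. Neither gene was tested.

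Ligands of this family bind paired type I and type II serine-threonine kinase receptors. The activated type I receptor phosphorylates Smad1 and Smad5 for most Bmps, or Smad2 and Smad3 for Tgf-beta and activin, and the phosphorylated Smads enter the nucleus with Smad4. In skin, Tgf-beta signalling is known for restraining keratinocyte proliferation, Tgfb2 for promoting early follicle downgrowth, and Bmp signalling together with its antagonists for setting where and when follicles form.

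In the transgenic animals, pups 4 and 6, a miR-200 construct behind a doxycycline-responsive promoter (pTRE2-200bcl) was combined with K14rtTA, the transactivator that the keratin 14 promoter drives. Control pup 3 carried K14rtTA and control pup 5 carried pTRE2-200bcl, so the controls differed from each other in genotype and neither had both parts. All pups were on a mixed strain background, came from dams fed doxycycline chow in pregnancy, and were taken at postnatal day 0.5. From each pup, cells positive for the keratin 14 reporter K14RFP and high in alpha6 integrin were sorted into hair germ (P-cadherin high) and interfollicular epidermis, IFE (P-cadherin low). That gave 8 libraries in 4 groups of 2 pups: transgenic hair germ, control hair germ, transgenic IFE and control IFE. The values that follow are TMM-scaled CPM (a gene's counts relative to its library's total in genes), given for pups 4 and 6 in that order in transgenic groups and for pups 3 and 5 in control groups. Log2 fold changes carry a standard error (SE) derived from the edgeR fit. A gene is said to have passed, risen or fallen where the edgeR adjusted p was under 0.05, unless another tool is named. With 2 libraries against 2, groups often do not overlap even where nothing differs. The share of all tested genes without overlap was not counted, so non-overlap is given as description only.

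The libraries held 7109871 to 14039583 counts in genes, and a count of 0 allows up to 0.199 to 0.522 CPM in a single library. Rn45s, the ribosomal RNA precursor, took 30.6% of counts in the IFE of control pup 3 and 29.0% in the IFE of transgenic pup 4, and 3.56% to 13.0% elsewhere. Pup 4 was the only pup with Y-linked counts, 2156 in hair germ and 1535 in IFE, against 0 to 4 in the others. The feature miR200primary stood at 526 and 797 CPM in transgenic hair germ against 0.176 and 1.40 CPM in control hair germ, and at 607 and 714 CPM in transgenic IFE against 3.83 and 2.63 CPM in control IFE. Zeb1 and Zeb2, listed as checks beside it, had positive log2 fold changes of transgenic over control. These were 2.13 and 1.46 in hair germ, and 2.53 and 4.9 in IFE. Of these only Zeb2 in IFE passed the edgeR test (adjusted p = 0.000299). Basal keratinocyte markers were abundant in every library, with Krt14 at 4277 to 11675 CPM. In control pups 11 of 12 hair germ markers had a positive log2 fold change of hair germ over IFE, but none passed the edgeR test (5 had an unadjusted p under 0.05; DESeq2 called 2 and limma-voom 0). The sort marker Cdh3 (P-cadherin) overlapped between the populations, at 353 and 436 CPM in control hair germ against 293 and 386 CPM in control IFE.

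The transgene belongs to a microRNA family with a pair of seeds that differ at 1 base, so the mature sequences and the matches to them in the pathway's transcripts are shown first. The 3p strands from RefSeq (build GRCm38.p6) are written 5′ to 3′ with bases 2 to 8, the seed, in capitals. miR-141 and miR-200a share the first seed, and miR-200b, miR-200c and miR-429 share the second. Which of them the construct holds is not stated in the labels beyond its name.
mmu-miR-141-3p: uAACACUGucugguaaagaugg
mmu-miR-200a-3p: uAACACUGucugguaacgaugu
mmu-miR-200b-3p: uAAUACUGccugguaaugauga
mmu-miR-200c-3p: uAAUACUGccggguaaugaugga
mmu-miR-429-3p: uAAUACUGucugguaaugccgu

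Matches were searched on the transcript strand of annotated 3′ UTRs (GENCODE on GRCm38) as CAGTGTT or AGTGTTA for the first seed and CAGTATT or AGTATTA for the second, with overlapping forms of 1 match counted once. At least 1 match lay in the 3′ UTR of 20 of the 38 tested members (52.6%), against 4692 of 12651 tested genes with a 3′ UTR (37.1%). The members' 3′ UTRs were also longer, with a median of 2083 bases against 1214. Shown here, in capitals within their flanking bases, are the matches of the 2 members that fell in transgenic cells, Bmpr1b and Smad5, and of 3 that rose, Tgfbr1, Tgfb2 and Id2.
Bmpr1b, chr3:141839256-141839284, minus strand: acttatatgacCAGTATTccttagaaaca
Bmpr1b, chr3:141839070-141839098, minus strand: cctccagggggCAGTGTTttcctatgcat
Smad5, chr13:56741407-56741435, plus strand: aagaaggataaCAGTATTtaatagtgtct
Tgfbr1, chr4:47411816-47411844, plus strand: tttgatcaaagCAGTGTTttgttttgttt
Tgfbr1, chr4:47414546-47414574, plus strand: tataaagtgtgAGTGTTAcgttgctaagt
Tgfb2, chr1:186625325-186625353, minus strand: ttttgattcatCAGTGTTtaaaaaaaaaa
Tgfb2, chr1:186625104-186625132, minus strand: aagaatttgttAGTGTTAattatgtgaaa
Tgfb2, chr1:186624045-186624073, minus strand: tttgagctccaCAGTGTTtcagccttttc
Id2, chr12:25094182-25094210, minus strand: ccagaaggaccCAGTATTcggttacttaa

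On the same build the genes the results turn on lie at chr1:186622792-186705989 (Tgfb2, minus strand), chr17:75005568-75392512 (Ltbp1, plus strand), chr3:141837136-142169425 (Bmpr1b, minus strand) and chr4:47353222-47414931 (Tgfbr1, plus strand). Both members that fell in transgenic cells, Bmpr1b and Smad5, held a match, and so did 5 of the 8 that rose (Bmp3, Id2, Smad7, Tgfb2 and Tgfbr1). The 3 that rose without one were Ltbp1, Skil and Tgfb1. In hair germ the median log2 fold change, transgenic over control, was -0.05 for the 20 members with a match and 0.44 for the 18 without. Over all tested genes with a 3′ UTR the same medians were -0.04 and 0.09. In IFE they were -0.48 and -0.07 for the members, and -0.11 and 0.04 for all such genes. These medians carry no test, and a match is a string of letters that says nothing by itself about binding.

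Per kilobase of annotated exon, Fst, the secreted activin antagonist follistatin, was the most abundant member in all 4 groups, with group means of 118 CPM per kb in transgenic hair germ, 156 in control hair germ, 108 in transgenic IFE and 208 in control IFE. Bmp7, a Bmp ligand of skin epithelium, came second at 58.9 CPM per kb in transgenic hair germ, 61.5 in control hair germ and 49.3 in control IFE. In transgenic IFE the second place was held by the type I receptor gene Tgfbr1, at 73.4 CPM per kb, which ranked 15 of 40 in control IFE at 14.9 CPM per kb. Smad4, the Smad shared by both branches, ranked 3 or 4 in every group, with group means of 34.9 to 41.2 CPM per kb. At the low end were Bmp5, Bmp6, Grem1, Inhba, Nog and Smad6, at 2.11 CPM per kb or less in every group.

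In hair germ, transgenic pups had more mRNA for the ligands Tgfb2 and Bmp3 and for Ltbp1, which binds latent Tgf-beta to the matrix, and less for the Bmp type I receptor Bmpr1b. These were 3 rises and 1 fall among 38 tested members by edgeR's quasi-likelihood test, where 0.762% of all 14176 tested genes rose and 0.19% fell. The median log2 fold change was 0.08 over the members, with 21 above 0 and 17 below, against 0.04 over all genes. An unadjusted p under 0.05 was found for 15 of the 38 members and for 2426 of the 14176 genes.

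Among the ligands, Tgfb2 was at 220.5 and 199.9 CPM in transgenic hair germ, against 24.8 and 11.8 CPM in the control hair germ libraries (3.54 on the log2 scale, SE 0.53, adjusted p = 0.0171). Bmp3, which in mouse bone antagonises other Bmps, was at 63.8 and 49.9 CPM against 19.6 and 12.6 CPM in controls (1.83, SE 0.38, adjusted p = 0.0461). Both transgenic libraries lay above both control libraries for each gene, with no overlap. Bmp4, the Bmp known from the dermal condensate, was at 9.15 and 33.0 CPM in transgenic hair germ against 3.25 and 4.05 CPM in controls; it did not pass (2.48, SE 0.79, adjusted p = 0.147). The other 7 tested ligands had log2 fold changes of -2.75 (Inhba, an activin subunit, adjusted p = 0.235) to 0.75 (Tgfb1, adjusted p = 0.44). Bmp7, the ligand with the highest level, overlapped between the groups at 198 and 275 CPM in transgenic hair germ against 253 and 241 CPM in controls.

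Of the receptors, Bmpr1b alone passed. It was at 41.8 and 44.6 CPM in transgenic hair germ against 115 and 126 CPM in the control libraries (log2 fold change -1.48, SE 0.26, adjusted p = 0.0281), with every transgenic library below every control library. Bmpr1a, another Bmp type I receptor of skin epithelium, had a log2 fold change of -0.04 (SE 0.23, adjusted p = 0.96). Bmpr2, the Bmp type II receptor with the most counts among the receptors, was at 165 and 162 CPM against 230.2 and 220.2 CPM in controls (-0.46, SE 0.19, adjusted p = 0.253). The type II receptor Tgfbr2 was at 97.1 and 94.3 CPM against 133 and 146 CPM (-0.54, adjusted p = 0.182), and Tgfbr1 at 91.6 and 91.4 CPM against 67.6 and 69.0 CPM (0.42, adjusted p = 0.281). Acvr1 was higher, at 37.6 and 44.7 CPM against 13.9 and 26.7 CPM (1.01, SE 0.34, adjusted p = 0.167). Acvr1b had a log2 fold change of 0.39 (adjusted p = 0.406). Libraries of the groups did not overlap for Bmpr2, Tgfbr2, Tgfbr1, Acvr1 or Acvr1b, but none of these differences passed.

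No Smad passed in hair germ by edgeR or limma-voom; 3 of 7 had an unadjusted p under 0.05, and DESeq2 called 2 lower, Smad2 and Smad5. Smad2, a Tgf-beta and activin Smad, was at 54.0 and 49.6 CPM in transgenic hair germ against 104 and 107 CPM in the control libraries (log2 fold change -1.03, SE 0.23, adjusted p = 0.0597). Smad5, a Bmp Smad, was at 125 and 147 CPM against 192 and 290.1 CPM (-0.83, SE 0.23, adjusted p = 0.108). Both genes were lower in each transgenic library than in each control library. The other Smad with an unadjusted p under 0.05, Smad1, went the other way. It was at 77.1 and 101.5 CPM against 56.8 and 51.9 CPM (0.71, SE 0.26, adjusted p = 0.192). Of the 4 Id genes, inhibitors of basic helix-loop-helix factors and direct Bmp-Smad targets, none passed under any of the 3 tools and none had an unadjusted p under 0.05; Id1 was at 33.6 and 41.8 CPM in transgenic hair germ against 46.6 and 20.1 CPM in controls.

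Ltbp1 was the modulator that changed, at 319 and 285 CPM in transgenic hair germ against 27.3 and 39.5 CPM in the control libraries (log2 fold change 3.17, SE 0.54, adjusted p = 0.024). The libraries did not overlap. Fstl1, a secreted follistatin-like protein, was at 30.5 and 40.6 CPM against 15.0 and 16.7 CPM in controls (1.15, SE 0.39, adjusted p = 0.165), and Bambi, a decoy receptor without a kinase, at 10.1 and 27.1 CPM against 8.08 and 2.72 CPM (1.80, SE 0.67, adjusted p = 0.201). All 4 calls of this comparison rest on both transgenic hair germ libraries. Without that of pup 4, or without that of pup 6, the count of members called was 0, with log2 fold changes of 3.43 and 3.58 for Tgfb2 and 3.05 and 3.23 for Ltbp1; the lone library is then assumed to vary like the other groups. Ltbp1 also missed the threshold without the hair germ of control pup 3 (2.89, adjusted p = 0.0791), Bmpr1b without the IFE library of either transgenic pup, and Bmp3 in every omission but that of control pup 3's hair germ (adjusted p of 0.0518 to 0.179). Limma-voom called Tgfb2 and Ltbp1 but not Bmp3 (adjusted p = 0.0599) or Bmpr1b (adjusted p = 0.0645).

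**Figure D1:**
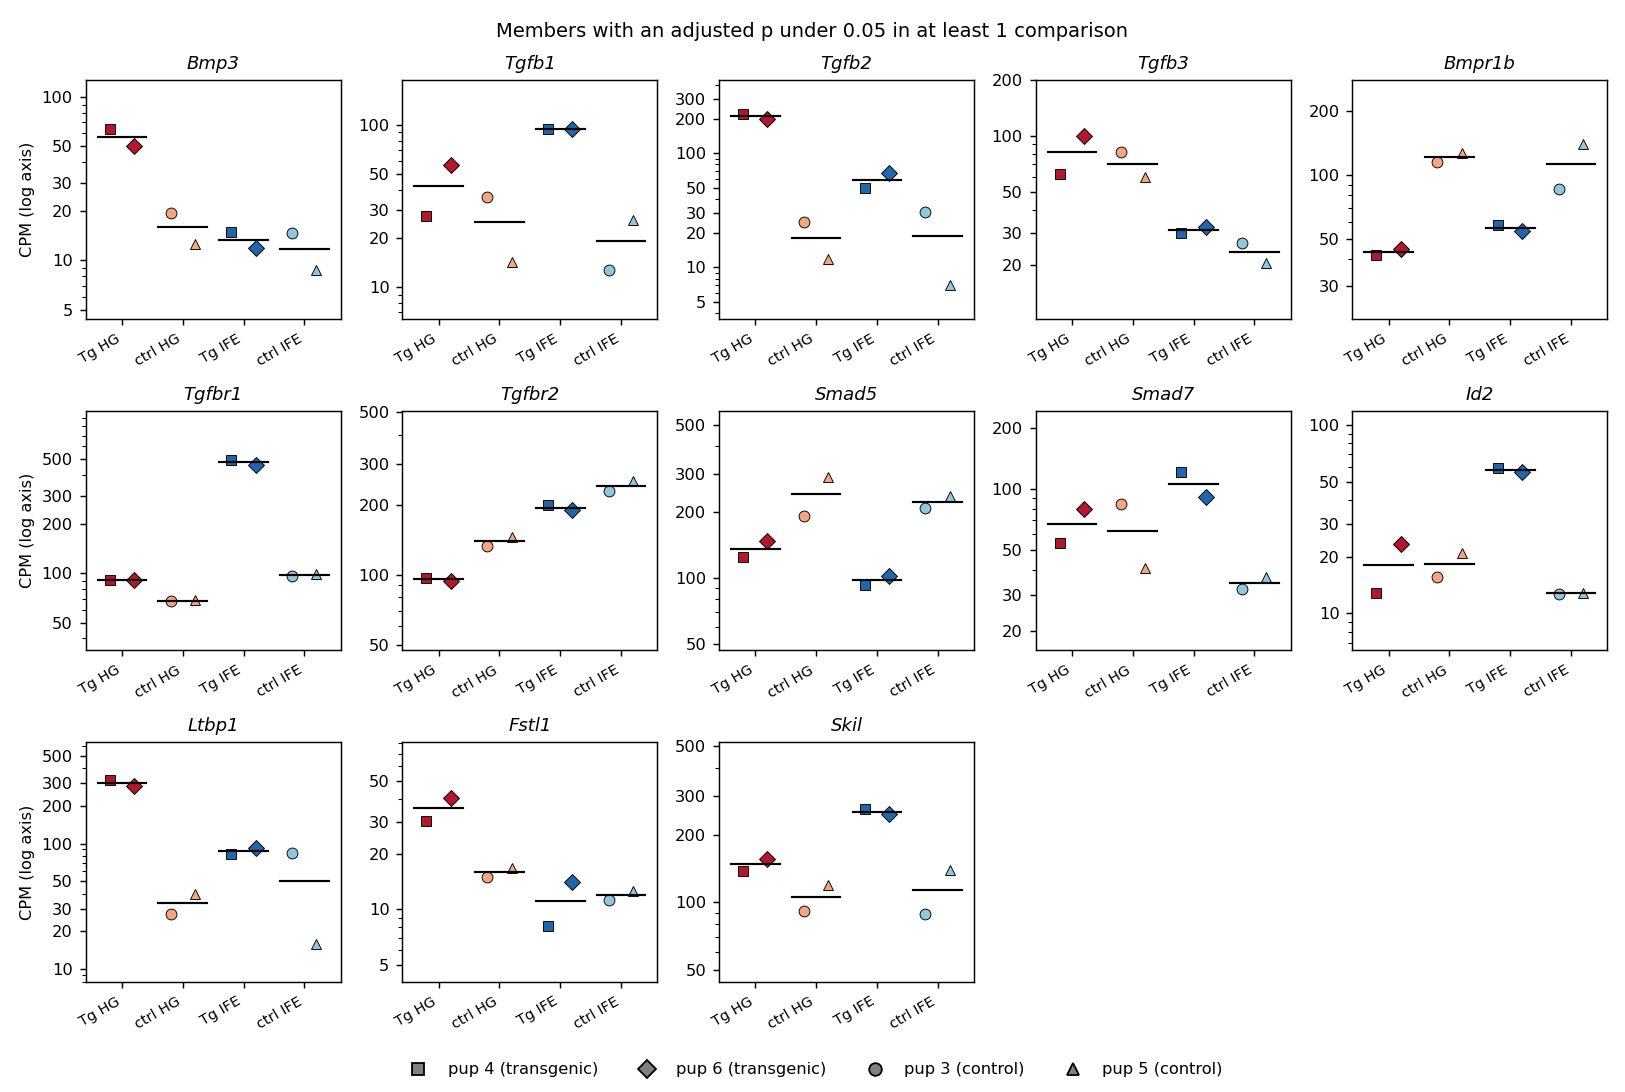
CPM (log axis) of the 13 members that passed in at least 1 comparison, in each library; symbols mark pups and horizontal bars the group means of 2 pups (Tg, transgenic; ctrl, control; HG, hair germ; IFE, interfollicular epidermis). Tgfb2 and Ltbp1 stand highest in transgenic hair germ, at 199.9 to 220.5 and 285 to 319 CPM, and Tgfbr1 in transgenic IFE, at 465 and 495 CPM.

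In IFE, transgenic pups had more mRNA for the receptor Tgfbr1, the ligand Tgfb1, the target gene Id2 and the Smad inhibitors Smad7 and Skil, and less for Smad5 and Bmpr1b. These were 5 rises and 2 falls among the 38 tested members, where 4.99% of all tested genes rose and 1.35% fell. With scaling by library size alone the split was 6 rises and 0 falls among the members, and 867 rises and 42 falls in place of 707 and 192 over all genes; that scaling moved the median over all genes from -0.01 to 0.15 on the log2 scale. The members' median was -0.24 under TMM scaling, with 13 above 0 and 25 below, and 15 of the 38 had an unadjusted p under 0.05 against 2456 of all 14176 genes.

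Tgfbr1 had the largest difference relative to its error, at 495 and 465 CPM in transgenic IFE against 96.3 and 99.0 CPM in control IFE (log2 fold change 2.30, SE 0.19, adjusted p = 8.04e-05). Of the other receptors Bmpr1b fell, at 58.3 and 54.5 CPM against 85.7 and 140.1 CPM (-1.01, SE 0.26, adjusted p = 0.0399). For both genes the groups did not overlap, but for Bmpr1b the control libraries differed from each other, and without the IFE of control pup 5 its log2 fold change was -0.60 (adjusted p = 0.495). It was also not called with library size alone (adjusted p = 0.192), without the filter (0.0621) or with limma-voom (0.0513), and its call held in 3 of 8 omissions of a single library. The remaining 8 receptors did not pass by edgeR; Tgfbr3, the Tgf-beta co-receptor betaglycan, came nearest at 85.8 and 74.0 CPM against 133 and 137 CPM (-0.76, adjusted p = 0.0692), followed by Bmpr2 at 194 and 169 CPM against 259.8 and 313 CPM (-0.66, adjusted p = 0.0724). DESeq2 called both lower (Tgfbr3 -0.73, adjusted p = 0.0456; Bmpr2 -0.63, adjusted p = 0.0292). Tgfbr2, with which Tgfbr1 forms the Tgf-beta receptor, was at 199 and 189 CPM in transgenic IFE against 229.9 and 253 CPM in control IFE (-0.32, adjusted p = 0.47).

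Of the ligands Tgfb1 passed, at 95.0 and 94.8 CPM in transgenic IFE against 12.7 and 26.1 CPM in control IFE (log2 fold change 2.25, SE 0.48, adjusted p = 0.0159). Tgfb2 was at 49.2 and 67.7 CPM against 30.8 and 7.05 CPM (1.72, SE 0.53, adjusted p = 0.0831), and its control libraries lay far apart. It missed the threshold by edgeR with TMM scaling but was called with DESeq2 (1.68, adjusted p = 0.0254), with limma-voom (2.36, adjusted p = 0.0285) and with library size alone (1.99, adjusted p = 0.0026). No overlap between the groups was seen for either ligand. Bmp3, which rose in hair germ, was at 14.8 and 11.9 CPM against 14.6 and 8.74 CPM in IFE (0.23, adjusted p = 0.891). Bmp2 was lower without passing, at 55.7 and 70.7 CPM against 94.7 and 132 CPM (-0.85, SE 0.28, adjusted p = 0.114), and its groups did not overlap.

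Smad5 was at 93.3 and 102 CPM in transgenic IFE against 208 and 237 CPM in control IFE (log2 fold change -1.18, SE 0.23, adjusted p = 0.0105). Smad7, the inhibitory Smad that Tgf-beta itself induces, was at 121 and 91.2 CPM against 32.2 and 37.1 CPM (1.60, SE 0.35, adjusted p = 0.0179). Groups were fully separate for both. Smad2 was again lower in the transgenic libraries without passing, at 72.3 and 56.4 CPM against 111 and 94.5 CPM (-0.68, adjusted p = 0.126), while Smad3 and Smad4 had log2 fold changes of -0.05 and -0.24.

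Id2 was at 59.5 and 56.4 CPM in transgenic IFE against 12.7 and 12.8 CPM in control IFE (log2 fold change 2.18, SE 0.38, adjusted p = 0.00474). The other 3 Id genes had negative log2 fold changes of -0.42 to -0.22 and did not pass; Id3, the Id gene with the most counts, was at 52.5 and 52.4 CPM against 58.9 and 75.2 CPM. Among the modulators Skil, which encodes the Smad corepressor SnoN, rose, at 261 and 249 CPM against 88.3 and 139 CPM (1.16, SE 0.25, adjusted p = 0.0159). Fst was at 469 and 519.7 CPM in transgenic IFE against 659.8 and 1253 CPM in control IFE (-0.95, SE 0.34, adjusted p = 0.15). Bmp1, a procollagen protease that also cleaves the Bmp antagonist chordin, was at 74.5 and 75.6 CPM against 172 and 125 CPM (-0.99, SE 0.29, adjusted p = 0.072). Neither Fst nor Bmp1 passed by edgeR, although their groups did not overlap, and DESeq2 called Bmp1 lower (-0.95, adjusted p = 0.0377).

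Left without both libraries of pup 4, the IFE comparison called 1 member, Tgfbr1, in place of 7. Without the IFE library of control pup 5 it called 2 (Skil and Tgfbr1), without that of transgenic pup 4 it called 2 (Id2 and Tgfbr1), and without that of transgenic pup 6 it called 4 (Id2, Smad7, Tgfb1 and Tgfbr1). The log2 fold change of Tgfb1 was 2.91 (adjusted p = 0.0516) without the IFE of control pup 5 and 1.93 (adjusted p = 0.1) without that of control pup 3. Skil and Smad7 likewise missed the threshold without the IFE of control pup 3, while Tgfb2 (3.12) and Ltbp1 (2.52) passed.

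**Figure D2:**
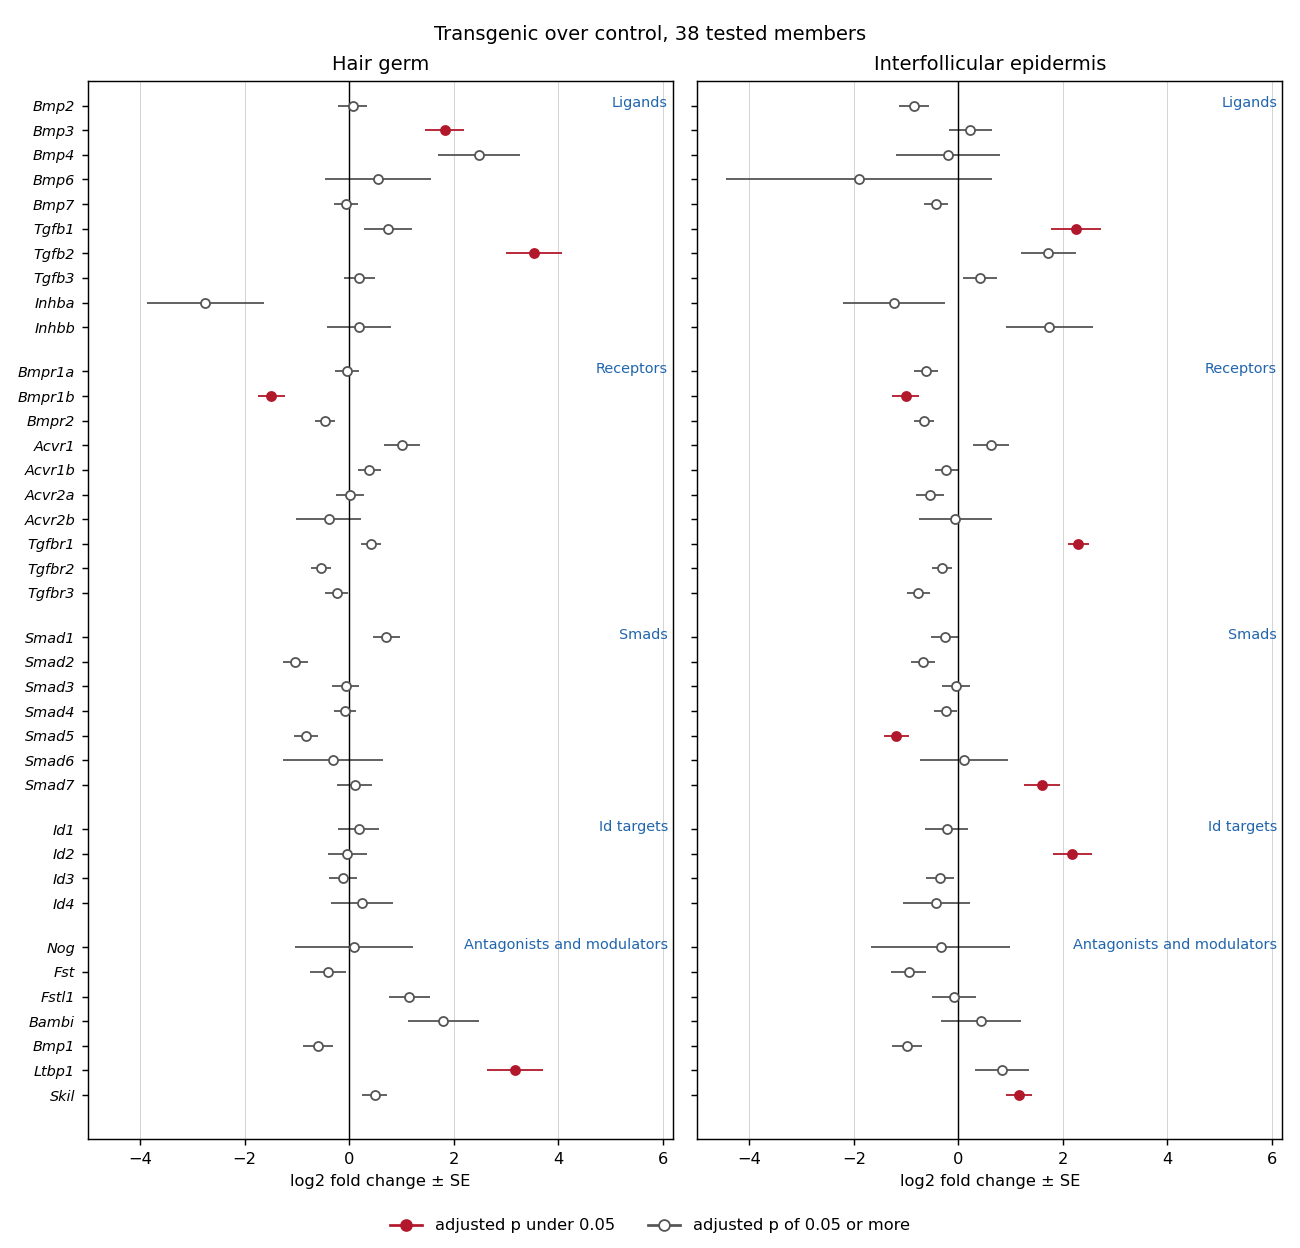
Log2 fold change of transgenic over control with its SE for the 38 tested members, by role, in hair germ and in IFE; filled red points have an adjusted p under 0.05. Bmpr1b is the one member filled on both sides, at -1.48 in hair germ and -1.01 in IFE.

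Markers of other cell types moved with the transgene, most of all in IFE. The 15 immune markers (among them Ptprc, Csf1r, Lyz2 and the C1q genes) summed to 473 and 299 CPM in transgenic hair germ against 201 and 85.3 CPM in control hair germ, and to 4323 and 3264 CPM in transgenic IFE against 289 and 136 CPM in control IFE. In IFE 15 of the 15 rose, with a median log2 fold change of 4.15, and none was at 0 in a transgenic library. In hair germ 3 of the 15 rose by edgeR, with a median of 1.41, while DESeq2 called 4 higher and limma-voom 0. The basal keratinocyte markers summed to 16252 and 16493 CPM in transgenic IFE against 33244 and 35388 CPM in control IFE, where 5 of 8 fell; in hair germ the sums were 20825 and 16883 CPM against 30101 and 25717 CPM, and none of the 8 passed by edgeR (3 had an unadjusted p under 0.05; DESeq2 called 3 and limma-voom 0). In bulk libraries such as these, fewer cells of a type and less RNA per cell cannot be told apart.

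Within the members, Tgfbr1, Id2, Tgfb1, Smad7 and Skil had their highest group mean in transgenic IFE, where the immune sum was also highest. They were picked because they rose there, so their place was largely fixed by that choice. The part of immune RNA in those 5 rises was not tested. Id2 and Tgfb1 are both known from the mouse as genes that epidermal Langerhans cells depend on. Cd207, the Langerhans cell lectin, was looked up after these values were seen and was at 3.51 and 4.53 CPM in transgenic IFE against 0 and 0 CPM in control IFE (adjusted p = 0.155). In hair germ it was at 1.41 and 0 CPM in transgenic against 2.02 and 0 CPM in control pups. The part of Langerhans cells in the Id2 and Tgfb1 values was not tested. Tgfb2, Ltbp1 and Bmp3, picked for their rise in hair germ, were highest in transgenic hair germ. There the immune sum was 473 and 299 CPM, against 4323 and 3264 CPM in transgenic IFE. The melanocyte sum (133 and 176 CPM) and the Merkel cell sum (58.2 and 40.2 CPM) were also highest in transgenic hair germ. Most of that Merkel cell sum came from Krt8 and Krt18. The part of any cell type in the values of Tgfb2, Ltbp1 and Bmp3 was not tested.

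Suprabasal keratinocyte markers summed to 1226 and 983 CPM in transgenic hair germ against 1628 and 957 CPM in control hair germ, and to 2547 and 1716 CPM in transgenic IFE against 4330.5 and 1622 CPM in control IFE. None of the 5 passed in either population by edgeR; 1 had an unadjusted p under 0.05 in hair germ and 0 in IFE, and DESeq2 and limma-voom called 0 in both. Hair germ markers summed to 1085 and 1482 CPM in transgenic hair germ against 1121 and 1258 CPM in control hair germ, and to 825 and 836 CPM in transgenic IFE against 685 and 1023 CPM in control IFE. By edgeR 1 of 12 rose in each population. DESeq2 called 3 higher and 1 lower in hair germ and 1 higher and 1 lower in IFE. Limma-voom called 0 in hair germ and 1 higher in IFE. Melanocyte markers summed to 133 and 176 CPM in transgenic hair germ against 31.7 and 30.4 CPM in control hair germ, and to 96.7 and 101 CPM in transgenic IFE against 24.0 and 18.9 CPM in control IFE. Of the 8, edgeR called 3 higher in hair germ and 4 in IFE, DESeq2 4 and 4, and limma-voom 1 and 1. Mlana and Sox10 were at 0 in all control libraries. Dermal papilla markers summed to 93.5 and 101 CPM against 30.6 and 38.5 CPM in hair germ and to 234 and 161 CPM against 28.2 and 29.5 CPM in IFE, nearly all of it from Trps1 and Cxcr4, while Crabp1, Fgf10 and Sox18 were at or near 0. Merkel cell markers summed to 58.2 and 40.2 CPM against 15.6 and 5.85 CPM in hair germ and to 22.4 and 35.9 CPM against 2.09 and 2.72 CPM in IFE. Most of it in transgenic libraries came from Krt8 and Krt18. In IFE 1 of 5, Krt18, rose by edgeR, and limma-voom called 0. Atoh1 was at 0 in all IFE libraries. In hair germ Atoh1 was at 2.82 and 1.70 CPM in transgenic against 4.04 and 0.532 CPM in control pups (edgeR adjusted p = 0.974). Fibroblast markers, most of it Dcn, summed to less in transgenic libraries, 74.4 and 117 CPM against 153 and 335 CPM in hair germ and 39.8 and 62.0 CPM against 82.0 and 251 CPM in IFE, with Twist2 at 0 throughout; endothelial markers summed to at most 15.5 CPM with Emcn and Cldn5 at 0. The part of these cell types in the members' differences was not tested.

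**Figure D3:**
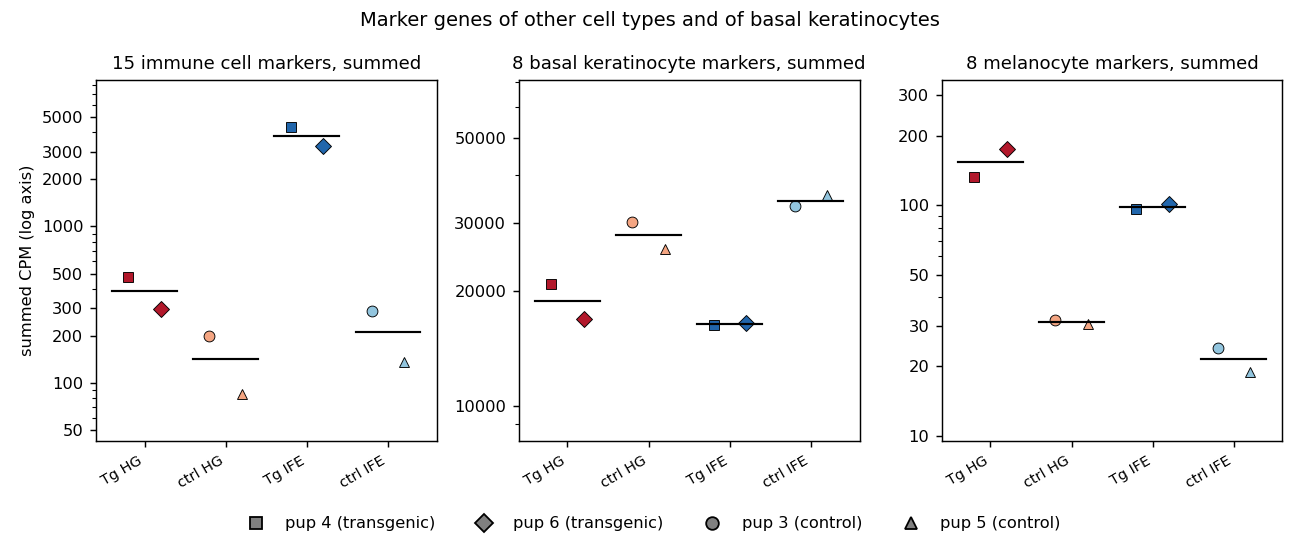
Summed CPM (log axis) of immune, basal keratinocyte and melanocyte markers in each library, with symbols for pups and bars for group means. The immune sum in transgenic IFE, 4323 and 3264 CPM, lies above that of all other libraries, which reach at most 473 CPM.

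Set against each other, the transgenic populations differed in 6 members. Hair germ had more mRNA than IFE for the ligands Bmp3 and Tgfb3 and for Fstl1, and less for the Tgf-beta receptors Tgfbr1 and Tgfbr2 and for Id2, where 0.875% of all genes were called higher and 3.75% lower. Under library-size scaling the members split into 6 higher and 2 lower in place of 3 and 3, and the median over all genes moved from 0.02 to 0.20. The members' median was 0.47, with 26 above 0 and 12 below. This comparison and those of transgenic with control share the transgenic libraries, so their values are given side by side only.

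Bmp3 was at 63.8 and 49.9 CPM in transgenic hair germ against 14.8 and 11.9 CPM in transgenic IFE (log2 fold change 2.10, SE 0.39, adjusted p = 0.00947). Tgfb3, a ligand with high levels in the follicle, was at 62.5 and 100.1 CPM against 29.8 and 32.1 CPM (1.39, SE 0.30, adjusted p = 0.0239). Neither ligand overlapped between the populations, and 8 of the 10 tested ligands had a positive value, the exceptions being Tgfb1 (-1.18, adjusted p = 0.183) and Inhba (-1.40, adjusted p = 0.618). Fstl1 was at 30.5 and 40.6 CPM against 8.09 and 14.1 CPM (1.64, SE 0.40, adjusted p = 0.0418).

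On the receptor side, Tgfbr1 was at 91.6 and 91.4 CPM in transgenic hair germ against 495 and 465 CPM in transgenic IFE (log2 fold change -2.39, SE 0.19, adjusted p = 0.000153). Tgfbr2 was at 97.1 and 94.3 CPM against 199 and 189 CPM (-1.02, SE 0.19, adjusted p = 0.0108). Id2 was at 12.8 and 23.4 CPM against 59.5 and 56.4 CPM (-1.69, SE 0.36, adjusted p = 0.0209). These 3 genes were lower in each hair germ library than in each IFE library. By the edgeR test, 14 of the 15 immune markers were also called lower in hair germ. Leaving out 1 of the 4 transgenic libraries reduced the 6 calls to 1 or 2, with Tgfbr1 among them each time and Tgfb3 as the second without the hair germ of pup 4; without both libraries of pup 4 the count was 0. Fstl1 was not called with limma-voom (adjusted p = 0.0514) or without the IFE library of either control pup, and Tgfbr2 was not called with library size alone (adjusted p = 0.179). DESeq2 and limma-voom also called Tgfb2 and Ltbp1 higher in hair germ, Tgfb2 at 1.84 and 1.83 and Ltbp1 at 1.78 with both. With the pup as a replicate block, which pairs the populations of 1 animal, 9 members were called: the 6, and Bmp1 (0.83), Tgfb2 (1.85) and Skil (-0.79).

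Between the control populations no member passed with edgeR or limma-voom; 5 of 38 had an unadjusted p under 0.05, against 1200 of all 14176 genes. Over all genes, 0.00705% (1 gene) were called higher in hair germ and 0% lower, against 39 and 110 genes with DESeq2. The smallest p among the members was that of Tgfb3, at 81.5 and 60.1 CPM in control hair germ against 26.5 and 20.5 CPM in control IFE (log2 fold change 1.60, SE 0.31, adjusted p = 0.257). Tgfbr2 followed, at 133 and 146 CPM against 229.9 and 253 CPM (-0.79, SE 0.19, adjusted p = 0.395). The libraries did not overlap for either gene, and DESeq2 called both. Smad7 was at 83.8 and 40.7 CPM in control hair germ against 32.2 and 37.1 CPM in control IFE (0.84, adjusted p = 0.576), Id2 at 15.6 and 20.9 CPM against 12.7 and 12.8 CPM (0.52, adjusted p = 0.709), and Bmp1 at 264 and 138 CPM against 172 and 125 CPM (0.44, adjusted p = 0.68). The members divided into 19 above and 19 below 0, or 30 and 8 with library size alone, a scaling that moved the median over all genes from -0.04 to 0.26. Tgfb3 alone was called under that scaling, and also without the hair germ of control pup 5 (1.80).

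**Figure D4:**
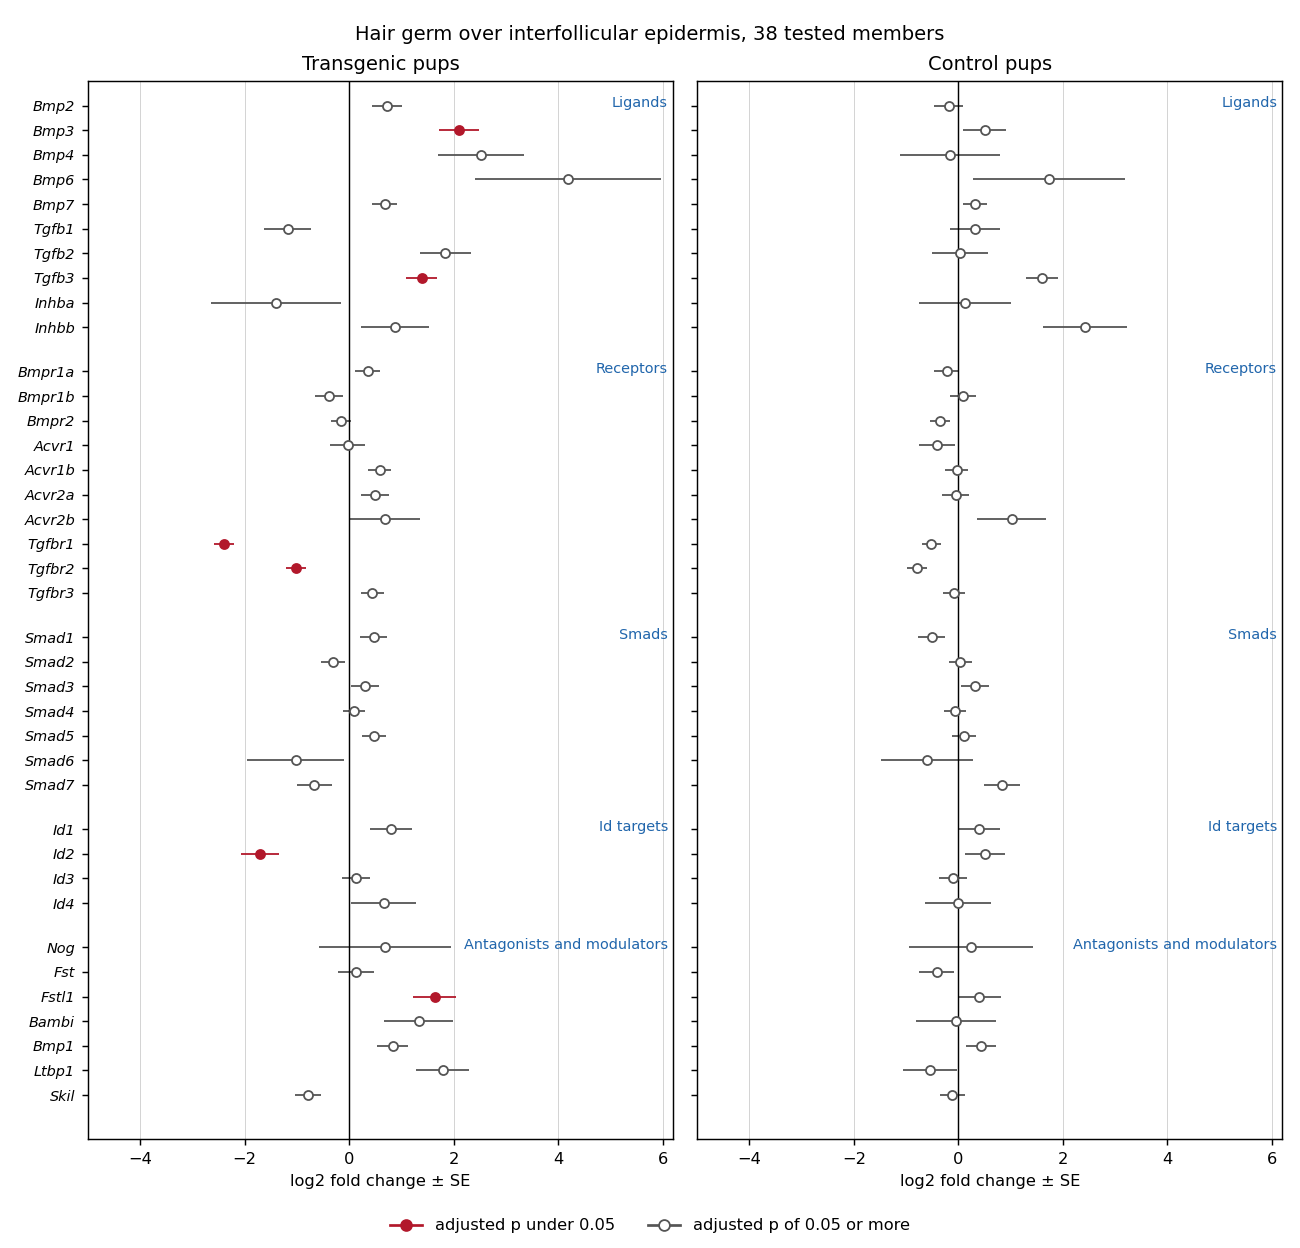
Log2 fold change of hair germ over IFE with its SE for the 38 tested members in transgenic and in control pups; filled red points have an adjusted p under 0.05. The 6 filled points are all on the transgenic side, while in controls Tgfb3 at 1.60 and Tgfbr2 at -0.79 have unfilled points.

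Whether the transgene's effect differed between hair germ and IFE was tested as the difference of the log2 fold changes, hair germ minus IFE. Tgfbr1 passed: its effect was 0.42 in hair germ and 2.30 in IFE, a difference of -1.87 (SE 0.27, adjusted p = 0.0437). Over all genes 0% had a positive and 0.134% (19 genes) a negative difference that passed with edgeR, against 25 and 152 with DESeq2. An unadjusted p under 0.05 was found for 9 of 38 members and 1149 of all genes. The sums of immune markers differed in the same direction, and their part in the Tgfbr1 difference was not tested. Leaving out 1 of the 6 libraries other than the hair germ of the controls took the Tgfbr1 call away (differences of -1.98 to -1.84, adjusted p of 0.0686 to 0.366). It was also not called by limma-voom (-1.87, adjusted p = 0.111), without both libraries of pup 4 (adjusted p = 0.847) or without the 2 Rn45s-rich libraries (adjusted p = 0.969).

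By edgeR with all libraries, no other member was shown to differ in its response. Id2 had a difference of -2.21 (SE 0.53, adjusted p = 0.172) and was called by DESeq2 (-2.23). Ltbp1 had 2.33 (SE 0.73, adjusted p = 0.382), with effects of 3.17 in hair germ and 0.84 in IFE, where it was at 82.3 and 92.3 CPM in transgenic pups against 84.6 and 16.0 CPM in controls. Without the IFE of control pup 5, the control library with the low value, the Ltbp1 difference was 3.11 and passed. For Smad7 it was -1.50 (SE 0.48, adjusted p = 0.402; -1.94, adjusted p = 0.047, without the hair germ of control pup 5), for Bmp3 1.60 (SE 0.56, adjusted p = 0.472), for Tgfb2 1.82 (SE 0.72, adjusted p = 0.533) and for Bmpr1b -0.47 (SE 0.36, adjusted p = 0.851).

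Beyond the members, 88 further genes of the pathway (other ligands, co-receptors, matrix binders, convertases, Smad partners and known targets) were listed, of which 59 were tested. In hair germ, where 0.762% of all genes rose, 1 did so by edgeR: Runx3, a transcription factor that works with Smads. It was at 11.4 and 20.1 CPM in transgenic against 0.439 and 1.79 CPM in control pups (log2 fold change 3.70, adjusted p = 0.0171). None fell by edgeR, and 12 of the 59 had an unadjusted p under 0.05. DESeq2 called 3 higher and 1 lower, while limma-voom called 0 in either direction, so it did not call Runx3. In IFE 3 of the 59 rose and 3 fell, where 4.99% of all genes rose and 1.35% fell, so the share that rose was near that of all genes. Runx3 was at 101 and 84.9 CPM in transgenic IFE against 7.84 and 5.60 CPM in control IFE (3.83, adjusted p = 0.000435). Pmepa1, a Tgf-beta target that dampens Smad signalling, was at 68.4 and 62.3 CPM against 13.8 and 16.8 CPM (2.08, adjusted p = 0.00358), and the proprotein convertase Furin, which processes Tgf-beta precursors, rose as well (1.08, adjusted p = 0.0264). The 3 that fell were the matrix binders Ltbp4 (-1.14, adjusted p = 0.0146) and Ltbp3 (-1.16, adjusted p = 0.023) and the Bmp antagonist Nbl1 (-1.32, adjusted p = 0.0166). Runx3 is also expressed in leukocytes. Its log2 fold change was 3.70 in hair germ and 3.83 in IFE, where the immune markers had medians of 1.41 and 4.15. The part of immune RNA in the Runx3 values was not tested.

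Between the transgenic populations 2 of the 59 were higher in hair germ and 2 lower, where 0.875% of all genes were higher and 3.75% lower. Ctgf, a Tgf-beta-induced matricellular gene, was higher in hair germ at 147 and 94.0 CPM against 27.8 and 35.9 CPM in IFE (log2 fold change 1.92, adjusted p = 0.00294), and so was Crim1, a transmembrane Bmp binder (1.31, adjusted p = 0.0459). Runx3 (-2.57, adjusted p = 0.00417) and Tgfbi, a Tgf-beta-induced matrix protein gene (-2.17, adjusted p = 0.0043), were lower in hair germ. Between the control populations none of the 59 passed with edgeR or limma-voom, DESeq2 called 1, and 5 had an unadjusted p under 0.05. For the difference of the transgene's effects, likewise, edgeR and limma-voom called none and DESeq2 called 1, with 7 at an unadjusted p under 0.05.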

How the data were processed

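Raw counts per gene symbol, 1 file per library, were deposited by the authors; per the submitters' processing notes, reads were handled with TopHat and HTSeq on mm10 (GRCm38), and DESeq2 is named too. Whether counting used strand is not given in the sources read for this work. Reads of overlapping antisense genes cannot be told apart for Bmp4, Bmp5, Bmp6, Tgfb2, Tgfb3, Bmpr1a, Acvr2a, Id4 and Fst (82 to 446 shared exon bases per overlap, and 1878 for the untested Bmp5). Tgfbr3 and Smad5 share 297 and 100 exon bases with a gene on their own strand, so their counts are uncertain to that extent. The deposited matrix of normalised values was not used. The 5 summary lines of each file were left out; 23.4% to 42.4% of recorded reads lay in genes.

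From these counts, 14176 of 23433 genes passed filterByExpr by group and were fitted as 4 group means over 8 libraries with TMM scaling in edgeR 4.0.16 (R 4.3.3; glmQLFit, legacy set to FALSE, and glmQLFTest, two-sided). P-values were adjusted by the Benjamini-Hochberg method over all tested genes of a contrast, with a threshold of 0.05. Each SE was taken as the size of the log2 fold change divided by the root of its F statistic. The procedure was run on independent counts simulated from its own fitted spread. Those counts held no difference of pup, sex, control genotype or cell mixture, so the run cannot show how such differences bear on the calls. Limits for counts of 0 take 3 counts, and they cover counting error only. DESeq2 1.42.0, limma-voom (limma 3.58.1), other scalings, no filter and left-out libraries were alternatives.

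Pups are separate animals, 2 per group. A pup number marks 1 animal in both populations, per the labels. The deviations of same-numbered libraries from their group means correlated at 0.0868 in transgenic and 0.117 in control pups over all tested genes, and at 0.191 and 0.394 over 7365 genes whose mean log2 CPM reached 4.

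Values in every library are given for members past the threshold in any contrast, for the smallest p of each role in each contrast and for the highest mean of each role; other genes named with values came nearest to the threshold or were chosen after their values were seen. The members and all lists were chosen with earlier results of these data known.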

Additional observations from a re-analysis of the deposited data

Results flagged for a closer look

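The effect of the transgene on Tgfbr1 differed between the populations by the test of the difference itself: -1.87 (log2, hair germ minus IFE; edgeR adjusted p = 0.0437), with 91.6 and 91.4 CPM in transgenic against 67.6 and 69.0 CPM in control hair germ, and 495 and 465 CPM in transgenic against 96.3 and 99.0 CPM in control IFE. The call was lost with limma-voom (adjusted p = 0.111), without both libraries of pup 4 (0.847), without the 2 Rn45s-rich libraries (0.969) and in 6 of 8 omissions of a single library; where it was lost, the difference was -1.98 to -1.84.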

How the results depend on the processing

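The 18 member calls of the 5 comparisons, each under 7 or 8 other settings and 8 omissions of a single library (277 values), gave 0 reversals; 176 kept the call and 101 lost it. Tgfbr1 in IFE kept its call in 7 of 7 settings and 8 of 8 omissions (log2 fold change 2.25 to 2.45). Leaving out single libraries gave 0 to 4 members called in hair germ, 2 to 9 in IFE, 0 to 1 between control populations, 1 to 8 between transgenic populations and 0 to 2 for the difference of effects. Without both libraries of pup 4 the counts were 0 in hair germ (4 with all libraries), 1 in IFE (7), 0 between transgenic populations (6) and 0 for the difference (1), and with the Rn45s-rich pair of libraries left out they came to 2, 3, 2 and 0. The 3 in IFE were then Tgfbr1, Ltbp1 (2.55) and Tgfb2 (3.28). Limma-voom called 2 members in hair germ and 0 for the difference. DESeq2 called 11 in IFE, 2 between control populations and 2 for the difference. Library size alone called 1 between control populations. The cause of these changes was not tested, beyond the smaller number of libraries where some were left out.

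With the pup as a replicate block, which pairs the populations, 9 members were called between transgenic populations, 0 between control populations and 1 for the difference; the transgenic and control arms share no pup. Over all genes the block gave 1018 calls in place of 655, 7 in place of 1, and 86 in place of 19. In hair germ 135 genes were called over all, against 316 with library size alone, 663 with DESeq2, 17 with limma-voom, 1 without pup 4, 20 without the Rn45s-rich libraries and 14 to 347 with 1 library omitted. In IFE 899 became 207 without pup 4, 195 without the Rn45s-rich libraries and 303 to 1209 with 1 omitted. Between transgenic populations 655 became 0, 192 and 47 to 1026 in the same order. Between control populations the 1 call became 0 to 149 over all settings. The 19 calls for the difference became 97 with library size alone, 45 without the filter, 177 with DESeq2, 1 with limma-voom, 0 without pup 4 or the Rn45s-rich libraries, and 0 to 192 with 1 omitted. With 2 pups per group, 1 library can decide a call.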
